A study of Mus musculus with 6 samples.

Results

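The Brn3 genes Pou4f1, Pou4f2 and Pou4f3 and the Islet genes Isl1 and Isl2 encode homeodomain transcription factors of sensory neurons, and open and acetylated chromatin was described here around these 5 genes of the 21887 protein-coding genes annotated. The genes were taken by name from RefSeq genes on GRCm38 (mm10), and each was given a locus: its span, 1 kb around both annotated ends, and the flanks up to the neighbouring protein-coding genes, at most 300 kb on a side. The cells were neurons of mouse dorsal root ganglia (DRG) at E11.5 (embryonic day), sorted as proprioceptive TrkC neurons by the GFP of Runx3-BAC-GFP-CB6 transgenic mice, whose name gives a bacterial artificial chromosome with Runx3 sequence and GFP. All 6 samples carried this transgene. They form 3 groups of 2: ATAC-seq, which marks open chromatin, ChIP-seq for acetylation of histone H3 lysine 27 (H3K27ac), found at active promoters and enhancers, and input DNA, which was not analysed here. No genotype, age or treatment was varied.

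Each assay is given as 1 consensus peak list over its 2 replicates, with positions and no signal. No spread between replicates, depth or fold can therefore be given, and the values below are positions, widths and counts of peaks. Of the peaks used, 43652 were ATAC peaks with a median width of 217 bp and 19924 were H3K27ac peaks with a median width of 1036 bp. The labelled cell type was checked at its markers: all 6 neuronal markers (Elavl3, Elavl4, Stmn2, Tubb3, Ncam1 and Snap25) had both marks within 1 kb of an annotated end, as did 47.8% of all protein-coding genes. Of 3 proprioceptor markers, Etv1 had both marks there, Runx3 had ATAC alone and Ntrk3 had neither. Away from its ends Runx3 did have H3K27ac: its locus held 53 ATAC peaks, 13 of them overlapping H3K27ac, and 9 H3K27ac peaks. The sorting transgene is named for Runx3 sequence, and its part in the Runx3 peaks was not tested. Among markers of other cells, 5 of 6 glial and neural crest genes had H3K27ac at an end (49.3% of all genes do), as did 1 of 4 motor neuron genes (Slc5a7), 1 of 4 blood genes (Cd68), 1 of 4 mesenchymal genes (Twist1) and 0 of 4 vessel genes. The part of such cells in the peaks of the Brn3 and Islet loci was not tested.

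Brn3 proteins belong to class IV of the POU family, whose members bind DNA through a POU-specific domain and a homeodomain. Islet proteins pair a homeodomain with LIM domains, through which they bind cofactors such as Ldb1. Pou4f1 (Brn3a) and Isl1 are switched on as sensory neurons leave the cell cycle, and together they are known to end the neurogenic programme and start that of sensory subtypes. Pou4f2 (Brn3b) is best known in retinal ganglion cells, Pou4f3 (Brn3c) in hair cells of the inner ear, and Isl2 in motor and sensory neurons.

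The promoters are shown first because 3 of the 4 with a RefSeq entry lay almost wholly under both marks and 1 did not. Each line gives the 250 bases before the RefSeq start (GRCm38.p6, 5′ to 3′ on the gene's strand). The stretches lie at chr14:104468000-104468249 (minus strand) for Pou4f1, chr8:78436648-78436897 (minus) for Pou4f2, chr13:116309689-116309938 (minus) for Isl1 and chr9:55540899-55541148 (plus) for Isl2. Capitals mark matches, on either strand, to GC boxes with the letters GGGCGG, to the CCAAT box, to E-boxes of the form CAGCTG and to the cyclic AMP response element TGACGTCA, and neighbouring GC boxes may overlap.
Pou4f1: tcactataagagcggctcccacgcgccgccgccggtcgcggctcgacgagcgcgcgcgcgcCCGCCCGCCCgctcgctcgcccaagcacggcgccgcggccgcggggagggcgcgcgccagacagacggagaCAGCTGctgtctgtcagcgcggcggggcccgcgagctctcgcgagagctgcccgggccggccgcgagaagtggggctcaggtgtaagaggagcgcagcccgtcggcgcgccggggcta
Pou4f2: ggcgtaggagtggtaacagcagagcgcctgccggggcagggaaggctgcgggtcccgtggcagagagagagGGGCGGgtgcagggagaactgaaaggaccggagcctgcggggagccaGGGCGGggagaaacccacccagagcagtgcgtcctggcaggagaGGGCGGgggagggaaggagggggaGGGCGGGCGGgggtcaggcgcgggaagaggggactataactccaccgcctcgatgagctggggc
Isl1: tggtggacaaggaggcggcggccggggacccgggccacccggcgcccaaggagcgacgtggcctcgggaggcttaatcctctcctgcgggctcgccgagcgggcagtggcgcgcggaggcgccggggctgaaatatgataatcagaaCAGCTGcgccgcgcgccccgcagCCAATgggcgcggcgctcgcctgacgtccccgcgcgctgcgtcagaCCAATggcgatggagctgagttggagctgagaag
Isl2: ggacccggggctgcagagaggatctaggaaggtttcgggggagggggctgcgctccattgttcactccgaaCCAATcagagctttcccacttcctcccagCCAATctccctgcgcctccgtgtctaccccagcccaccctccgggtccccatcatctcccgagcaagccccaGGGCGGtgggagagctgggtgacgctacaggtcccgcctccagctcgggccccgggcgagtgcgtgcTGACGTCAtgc

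The Pou4f1 stretch had 247 of its 250 bases under an ATAC peak and all 250 under H3K27ac. In the Isl1 and Isl2 stretches all 250 bases lay under both. The Pou4f2 stretch had 142 bases under an ATAC peak and 0 under H3K27ac. These are CpG-rich sequences: Pou4f1 held 47 CpG dinucleotides, more than 99.8% of the 32841 RefSeq promoters of this length, and Isl1 held 33, whereas Pou4f2 held 17 and Isl2 held 16, against a median of 6. Pou4f2 had 5 GC boxes, Pou4f1 had 2 and Isl2 had 1, a motif present in 32.7% of all promoters. Isl1 and Isl2 each had 2 CCAAT boxes (33.9% of promoters). Pou4f1 and Isl1 each had 1 E-box of the letters CAGCTG (13.0%). Isl2 had a cyclic AMP response element 4 to 11 bases before its start, which 1.55% of promoters hold anywhere in the window. The letters searched for class IV POU (ATAATNAAT), Islet (CTAATG), Neurog and Neurod (CAGATG), Runx (TGTGGT), Sox (CTTTGTT) and TATA-box (TATAAA) motifs, and the Ebf motif, had no match in these 4 windows, which says only that those letters are not there. The rarest of them, the Ebf motif, occurs in 0.780% of all promoters and the most frequent, CAGATG, in 14.4%.

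All 5 genes had H3K27ac within 1 kb of an annotated end, as did 49.3% of all protein-coding genes. ATAC was found there at Pou4f1, Pou4f2, Pou4f3 and Isl1 (4 of 5 genes, against 60.4% of all), which thus had both marks at an end. Isl2 missed the window by little: its second ATAC peak stopped 1094 bp from an annotated end, and its first lay over the RefSeq start, 2472 bp inside the annotated span. Counted within 1 kb of the RefSeq start, Pou4f1, Pou4f2, Isl1 and Isl2 all had ATAC (4 of 4, against 62.3% of 17492 genes with such a start) and all had H3K27ac (51.6%). All 5 loci held at least 1 ATAC peak that overlapped H3K27ac, as did 58.5% of all loci. These shares of all genes are high, so having a mark does not set the 5 genes apart. Their differences lay in the breadth and layout of the marks.

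**Figure D1:**
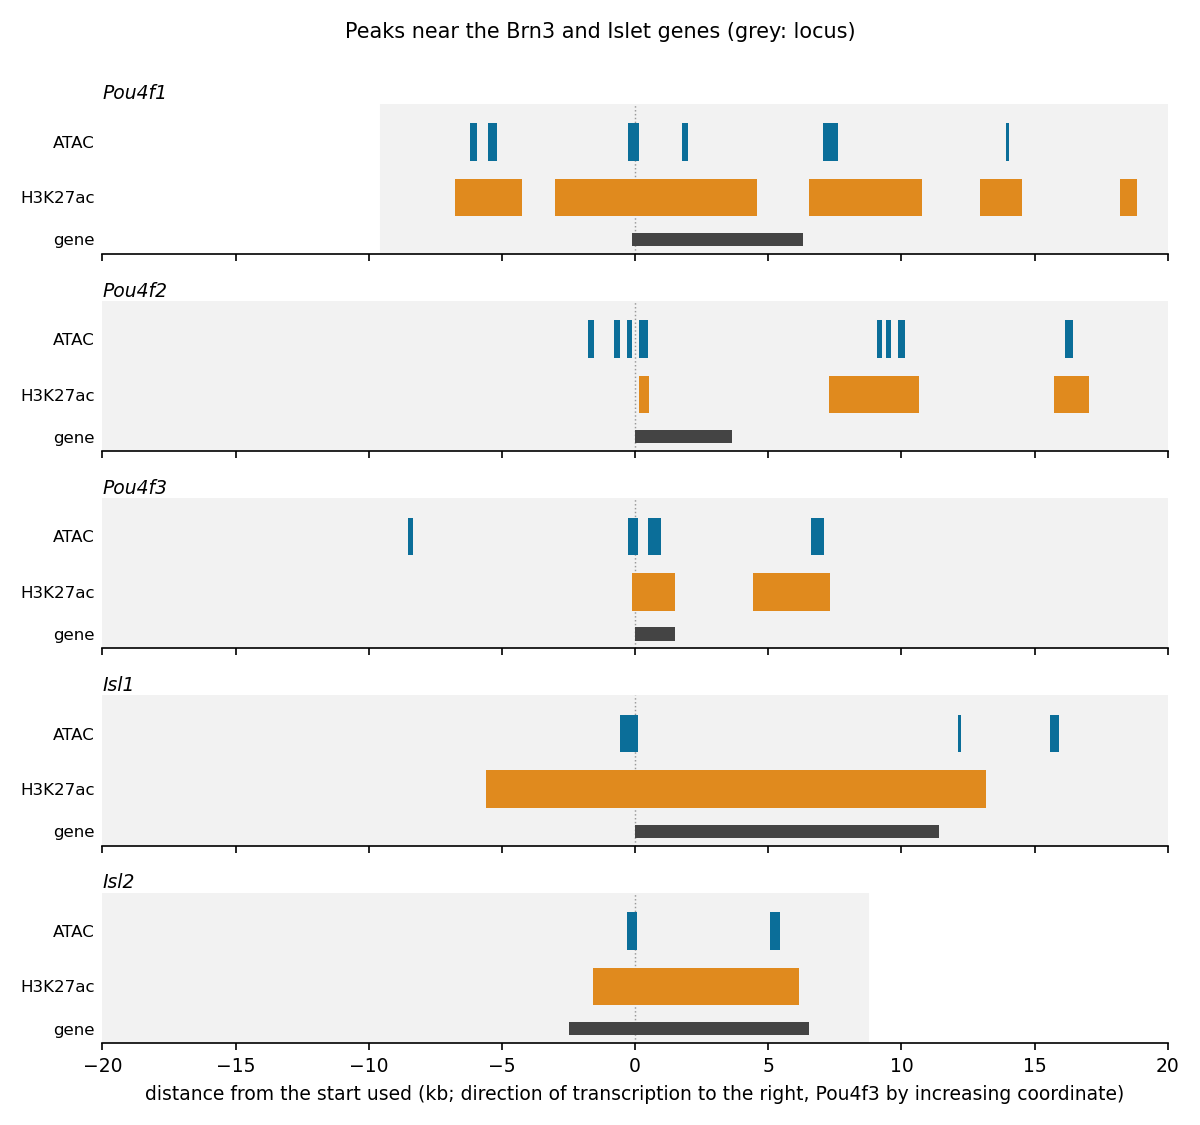
Peaks within 20 kb of the start of each gene: ATAC (blue), H3K27ac (orange), annotated span (dark grey) and locus (light grey); the x axis is the distance from the RefSeq start in kb in the direction of transcription, and for Pou4f3 from its lower-coordinate end. H3K27ac covers the whole of Isl1 and Pou4f3 and most of Isl2 and Pou4f1, but only a short stretch of Pou4f2.

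H3K27ac covered a large part of most of these genes. It covered 100% of the annotated span of Isl1 (11419 bp) and of Pou4f3 (1497 bp), 86.1% of Isl2 (8991 bp) and 73.0% of Pou4f1 (6444 bp). Pou4f2 was the exception, with 10.2% of 3639 bp. The median over all genes was 0.645%, and 1.66% of genes were covered over at least 50% of their span, a limit chosen after the values were seen. A short span is more easily covered, and that of Pou4f3 is the shortest of the 5.

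Isl1 (gene 16392, chromosome 13, 116298270 to 116309688) carried the widest mark. A single H3K27ac peak of 18794 bp ran from -5605 to +13188 bp relative to its start, past both ends of the gene, and had rank 4 by width in the whole list, behind 3 peaks over Hox genes. Only 2 ATAC peaks lay in it. The first, 680 bp wide, spanned the start and was wider than 95.8% of all ATAC peaks. The second was 142 bp wide and lay 693 bp beyond the 3′ end of the span. Together they took up 822 bp of the acetylated stretch. Among the 23 H3K27ac peaks of 10 kb or more, 11 held 2 or fewer ATAC peaks and the median was 3.

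In the rest of the Isl1 locus the marks did not overlap. The nearest protein-coding genes, Itga1 and Parp8, lie 1196 kb and 541 kb away, so both flanks were cut at 300 kb and the locus measured 611 kb. It held 7 ATAC and 5 H3K27ac peaks in all. Per 100 kb these were 1.14 ATAC peaks (more than 33.0% of genes) and 0.818 H3K27ac peaks (more than 52.5%). Of the 7 ATAC peaks, 5 did not overlap H3K27ac, and all 5 lay in the flanks. Over all genes, 10984 of 13175 ATAC peaks in flanks did not overlap it either. A 337 bp ATAC peak lay 4.16 kb beyond the 3′ end, 2393 bp from the edge of the broad peak. A second group lay upstream of the start: ATAC peaks of 321 bp and 105 bp at 185.9 kb and 186.5 kb, with H3K27ac peaks of 264 bp, 1420 bp and 535 bp at 184.4, 188.1 and 198.4 kb. None of these 5 overlapped another. Downstream of the start, ATAC peaks of 123 bp and 99 bp lay at 107.9 kb and 116.7 kb, and an H3K27ac peak of 125 bp lay 195 bp from the first.

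Isl2 (gene 104360, chromosome 9, 55538677 to 55547667) had a compact layout. Its neighbours Etfa and Scaper lie 26.4 kb and 2.21 kb away, and the locus of 37.6 kb held 1 H3K27ac peak and 2 ATAC peaks. The H3K27ac peak was 7737 bp wide, rank 50 of the list, and ran from -1575 to +6161 bp. Both ATAC peaks lay inside it: one of 401 bp over the RefSeq start and one of 375 bp, 5.05 kb downstream of it. No peak had its midpoint in either flank. Both Islet genes thus had 1 broad acetylated stretch over the gene with 2 ATAC peaks in it, 1 of them over the start. This was not particular to them: the 7601 bp peak over the start of Pou4f1 also held 2. Among the 39 H3K27ac peaks of 7 to 8.5 kb, 28 held 2 or fewer ATAC peaks and the median was 2.

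Pou4f1 (gene 18996, chromosome 14, 104461675 to 104468118) had 15 H3K27ac peaks in its locus, a number reached by 45 of all 21887 loci, and 8 ATAC peaks, reached by 1547. This was the largest H3K27ac count of the 5 genes, but with flanks of at most 100 kb it was 8, below the 9 of Pou4f3, and the rank of Pou4f1 among all genes went from 38 to 144. H3K27ac covered 36.8 kb of the locus, rank 16 of all genes. The locus is long, at 316 kb, and per 100 kb it held 4.75 H3K27ac peaks (more than 86.3% of genes) and 2.53 ATAC peaks (more than 50.7%).

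Near Pou4f1 the marks came together. The peak over the start was 7601 bp wide (rank 56), ran from -3019 to +4581 bp and held ATAC peaks of 397 bp over the start and of 219 bp at 1.75 kb downstream, inside the gene. A second H3K27ac peak of 4244 bp began 196 bp beyond the 3′ end and held an ATAC peak of 553 bp, wider than 90.5% of the list. Upstream, toward Obi1 at 9.42 kb, an H3K27ac peak of 2551 bp held ATAC peaks of 335 bp and 271 bp at 5.17 and 5.94 kb from the start. One of 1562 bp held an ATAC peak of 126 bp 7.59 kb beyond the 3′ end. Joined with an ATAC-free peak of 634 bp at distances up to 10 kb, these 5 peaks form a domain 25.6 kb long, with 16592 bp covered and 6 ATAC peaks, at rank 29 of 16290 domains (17 when peaks within 5 kb are joined, 56 within 20 kb). The Isl1 peak alone ranked 20 (11 and 38) and Isl2 160 (112 and 292), against a median of 1177 bp covered per domain. The order of the other 2 genes turned with the joining distance: Pou4f2 ranked 466 and Pou4f3 616 at 10 kb, but Pou4f3 stood ahead at 5 kb (456 against 15929) and at 20 kb (301 against 723).

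Farther out, H3K27ac at Pou4f1 was mostly found without ATAC. Of its 15 H3K27ac peaks, 10 overlapped no ATAC peak, and they lay 11.9 to 268 kb beyond the 3′ end, the nearest being the 634 bp peak of the domain. All 10 were among its 13 flank peaks. Over all genes, 2306 of 4126 H3K27ac peaks in flanks overlapped no ATAC peak, so this is common for such peaks. They were not all small: 6 exceeded 1 kb and 4 exceeded 2 kb, and the widest, 4529 bp at 163 kb, was wider than 98.6% of the list. The flank holds the long non-coding RNA gene D130079A08Rik (171 kb), whose span overlapped 9 H3K27ac peaks but 1 ATAC peak. The farthest ATAC peak, 104 bp wide and 252.9 kb beyond the 3′ end, lay in an H3K27ac peak of 3926 bp. The only ATAC peak of the locus without H3K27ac was 172 bp wide, 218.1 kb beyond the 3′ end and 837 bp from an H3K27ac peak of 1596 bp. The next peaks past the 300 kb limit were H3K27ac at 324 kb and ATAC at 422 kb.

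**Figure D2:**
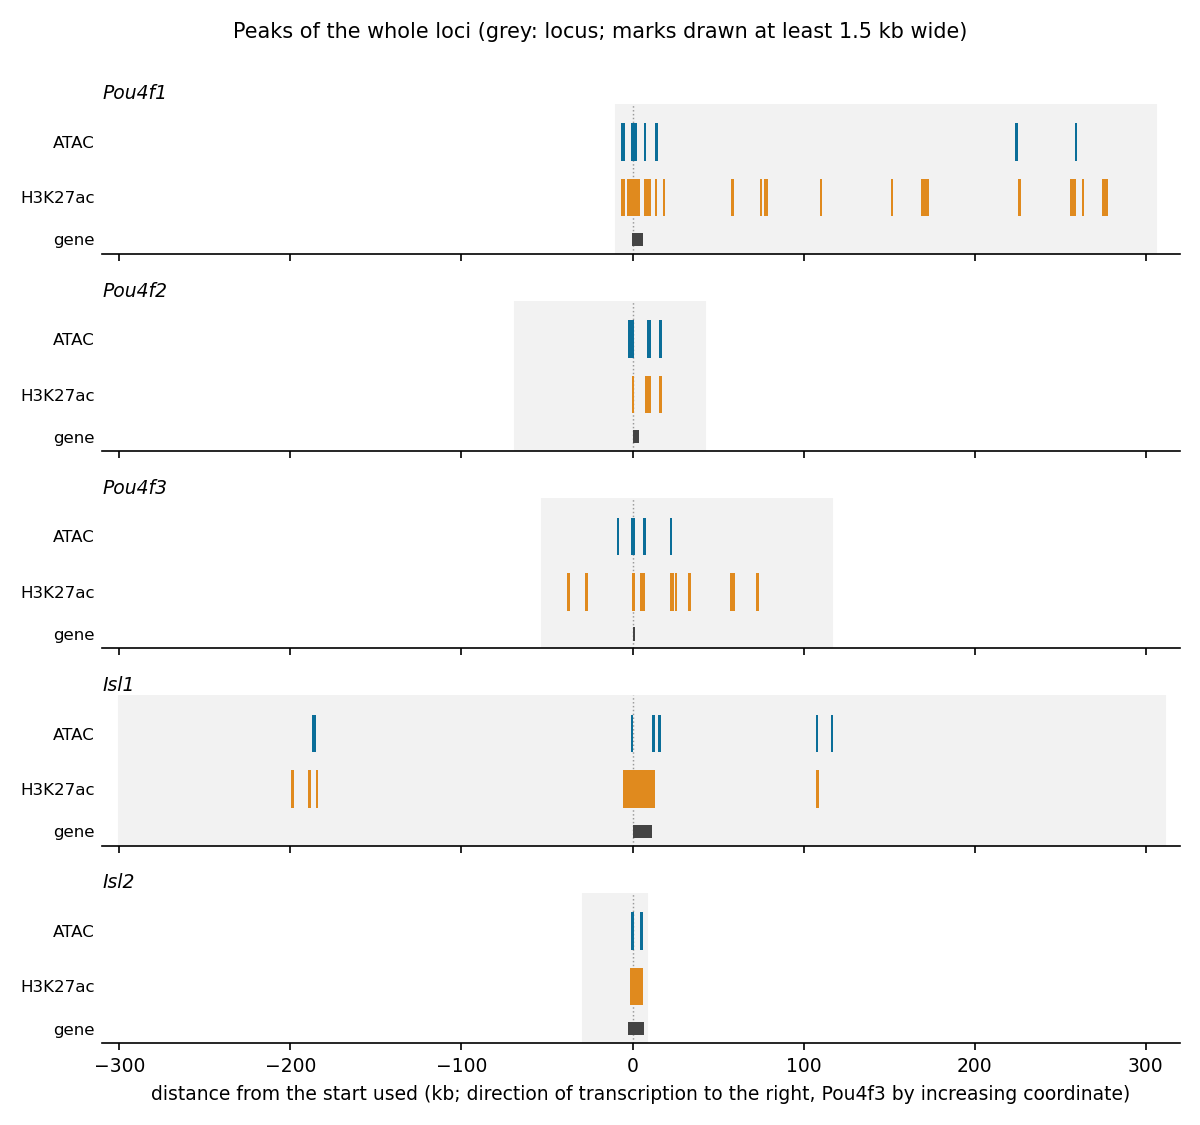
Peaks of the whole loci: ATAC (blue), H3K27ac (orange) and annotated span (dark grey) by distance from the start in kb, drawn at least 1.5 kb wide so that they can be seen; light grey is the locus. The 10 H3K27ac peaks without ATAC at Pou4f1 lie on its 3′ side, where the locus reaches 300 kb. On its 5′ side the locus ends after 9.42 kb, so the sides cannot be compared. Isl1 has 4 H3K27ac peaks within 300 kb outside its broad one.

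Pou4f2 (gene 18997, chromosome 8, 78433009 to 78436647) had a different layout, with little H3K27ac at its start and more beyond its 3′ end. Ttc29 and Rbmxl1 lie 38.7 kb and 68.6 kb away, and the locus of 111 kb held 8 ATAC and 3 H3K27ac peaks. Around the start, 4 ATAC peaks stood in a row. The one inside the gene, 360 bp wide and 131 bp from the start, overlapped an H3K27ac peak of 371 bp, which was wider than only 12.0% of the list. The 3 before the start, of 184, 199 and 231 bp at 109, 577 and 1552 bp, overlapped none. On the 3′ side, an H3K27ac peak of 3370 bp began 3.65 kb beyond the gene and held 3 ATAC peaks of 196, 191 and 261 bp. Another of 1333 bp at 12.1 kb held 1 of 284 bp. All 3 H3K27ac peaks of the locus thus overlapped ATAC, and 5 of 8 ATAC peaks were acetylated. With H3K27ac peaks joined within 5 kb in place of 10 kb, the mark at the gene was the 371 bp peak alone, at rank 15929 of 17833 domains, so its domain rank rests on the 3′ group.

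Pou4f3 (gene 18998, chromosome 18, 42394597 to 42396093) had no entry in the promoter table, so its peaks are placed by coordinate. Its H3K27ac peak of 1636 bp covered the whole gene and held an ATAC peak of 494 bp inside it. It shared 221 bp with another ATAC peak of 378 bp, across the lower end. Toward higher coordinates, an H3K27ac peak of 2891 bp at 2.94 kb held an ATAC peak of 515 bp, and one of 2250 bp at 20.4 kb held an ATAC peak of 195 bp. Both lay in the long non-coding RNA gene Gm31438 (35.4 kb), whose span overlapped 4 H3K27ac peaks and 2 ATAC peaks. Of 9 H3K27ac peaks in the locus (reached by 199 loci), 6 had no ATAC. All 6 lay in the flanks, where 2306 of 4126 such peaks had none over all genes. Among them was one of 2938 bp at 55.7 kb, in the long non-coding RNA gene Gm31501. Toward Rbm27, which lies 53.1 kb away, 2 H3K27ac peaks and an unacetylated ATAC peak of 220 bp were found, the last at 8.32 kb. The locus held 5 ATAC peaks, 4 of them acetylated, and 12.7 kb under H3K27ac, rank 201 of all genes. Per 100 kb it held 5.30 H3K27ac peaks, more than 88.0% of genes.

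**Figure D3:**
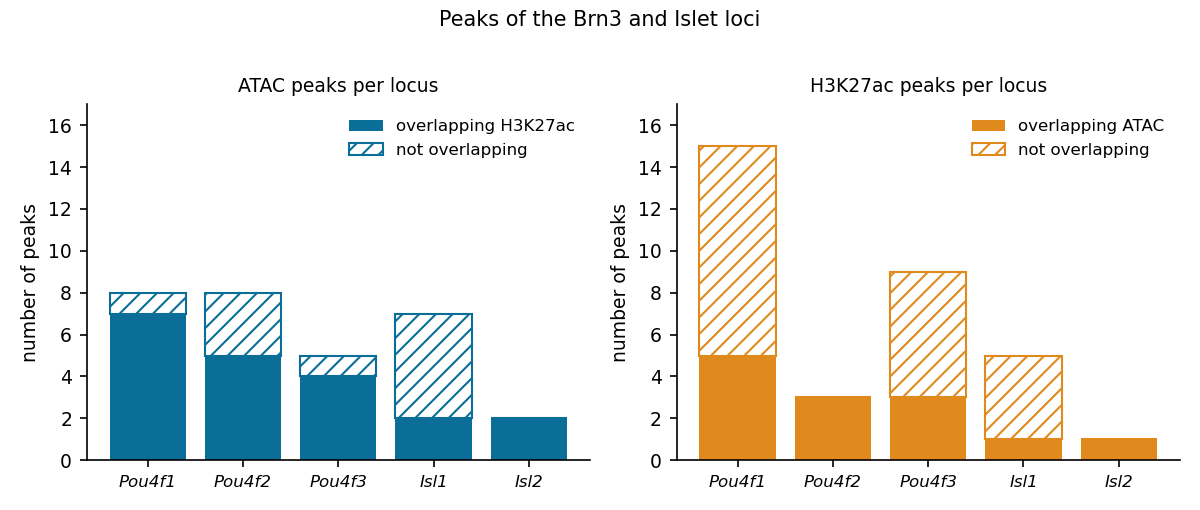
Number of ATAC peaks (left) and H3K27ac peaks (right) in each locus, split into those that overlap the other list (filled) and those that do not (hatched). Isl1 has 5 of its 7 ATAC peaks without H3K27ac, and Pou4f1 has 10 of its 15 H3K27ac peaks without ATAC. Of all peaks between genes, 10984 of 13175 ATAC and 2306 of 4126 H3K27ac peaks did not overlap the other list.

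Over the 5 loci, 20 of 30 ATAC peaks (66.7%, 95% Wilson interval 48.8 to 80.8) overlapped H3K27ac by at least 1 bp, beside 39.6% of all ATAC peaks. The interval covers counting error only, and peaks of a locus share their surroundings, so no test was made. The shares were 7 of 8 at Pou4f1, 5 of 8 at Pou4f2, 4 of 5 at Pou4f3, 2 of 7 at Isl1 and 2 of 2 at Isl2. By position, 7 of 9 were acetylated at gene ends (72.8% over all genes), 3 of 3 inside the genes (26.6%) and 10 of 18 in the flanks (55.6%, interval 33.7 to 75.4, beside 16.6% of all ATAC peaks between genes). Of the 3 inside peaks, 1 was that over the RefSeq start of Isl2, which lies inside the annotated span. All 10 acetylated flank peaks belonged to the Brn3 loci: 4 each to Pou4f1 and Pou4f2 and 2 to Pou4f3. None of the 5 flank peaks of Isl1 was acetylated, and Isl2 had no flank peak. This split was seen at the 300 kb limit, which cuts both flanks of Isl1. With flanks of at most 500 kb, 4 of 11 ATAC peaks of Isl1 were acetylated, still with 2 ATAC peaks at an end. Pou4f1 then had 7 of 10 acetylated.

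Seen from the mark, 13 of 33 H3K27ac peaks (39.4%, interval 24.7 to 56.3) overlapped ATAC, beside 68.9% of all. All 6 at gene ends did (95.2% over all genes), and 7 of 27 in the flanks (25.9%, interval 13.2 to 44.7, beside 44.1%). The 20 without ATAC belonged to Pou4f1 (10), Pou4f3 (6) and Isl1 (4). Median widths were 2891 bp for the 13 with ATAC and 584.5 bp for the 20 without it, beside 1231 and 602 bp over the whole list. For ATAC peaks of the loci the medians were 309.5 bp if acetylated and 191.5 bp if not, beside 365 and 165 bp in the list.

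The 10 ATAC peaks without H3K27ac mostly lay beside it, a count made after the positions were seen. In 4 cases an H3K27ac peak was within 1 kb and in 8 within 2.5 kb, and the median gap was 1.43 kb. Of all 26372 ATAC peaks without H3K27ac, 7.49% had one within 1 kb and 9.90% within 2.5 kb, and the median gap was 29960 bp. The 2 sets are unlike: the 10 peaks lie in loci with 3 to 15 H3K27ac peaks, beside a median of 1 over all genes. The part of this in the short gaps was not tested. The 3 peaks before the start of Pou4f2 lay 265, 733 and 1708 bp from H3K27ac, and the pair upstream of Isl1 1313 and 1540 bp. The exceptions were the Pou4f3 peak, 8199 bp away, and the farthest downstream ATAC peak of Isl1, 8344 bp away. The H3K27ac peaks without ATAC were not close in this way: 4 of 20 had an ATAC peak within 2.5 kb, beside 26.1% of all such peaks.

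**Figure D4:**
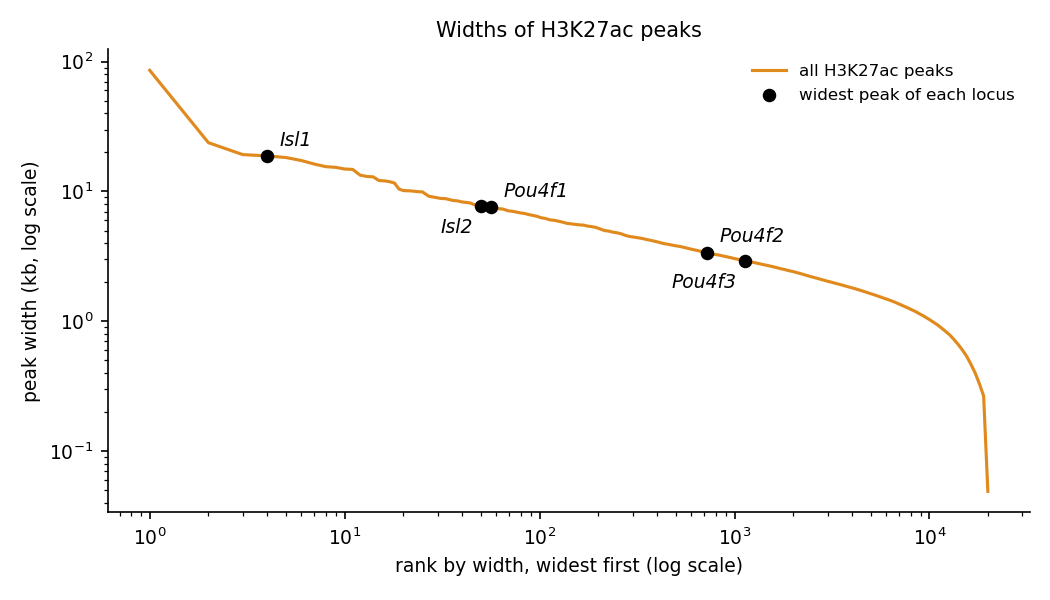
Width of all H3K27ac peaks in kb against their rank by width, both on log scales (line), with the widest peak of each locus marked (points). Isl1 stands at rank 4 with 18794 bp, Isl2 and Pou4f1 at ranks 50 and 56, and Pou4f2 and Pou4f3 at ranks 724 and 1127.

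The other LIM homeobox genes had little H3K27ac, while the other POU genes had each mark at about the share of all genes. Of 10 other LIM homeobox genes, which act in many kinds of neuron, 7 had ATAC at an end (Lhx1, Lhx2, Lhx3, Lhx4, Lhx5, Lhx9 and Lmx1a), 0 had H3K27ac there, and Lhx6, Lhx8 and Lmx1b had neither. Their loci held a median of 7 ATAC peaks, from 2 to 14, and at most 2.25 kb of H3K27ac (Lmx1a), beside 21.1 kb at Isl1 and 7.74 kb at Isl2. H3K27ac covered at most 0.488% of a span. Of 11 other POU genes, 7 had ATAC at an end and 5 had both marks (Pou2f1, Pou2f2, Pou3f2, Pou3f3 and Pou6f1), beside 60.4% and 47.8% of all genes. Those with neither included Pou1f1, which acts in the pituitary, Pou2f3, and Pou5f1, a pluripotency factor. The most acetylated bp among them were 7.56 kb at Pou2f2, above the 5.07 kb of Pou4f2 and below the other 4 genes. Over all genes the median locus held 2 ATAC peaks and 738 bp of H3K27ac. These totals grow with the locus, which was 611 kb at Isl1 and 116 kb at Pou2f2. Per kb of locus, H3K27ac covered 34.6 bp at Isl1 (more than 78.7% of genes) and 45.7 bp at Pou4f2 (83.7%). It covered 75.1 bp at Pou4f3 (90.5%), 117 bp at Pou4f1 (94.6%) and 206 bp at Isl2 (97.7%). No test was made between these lists.

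**Figure D5:**
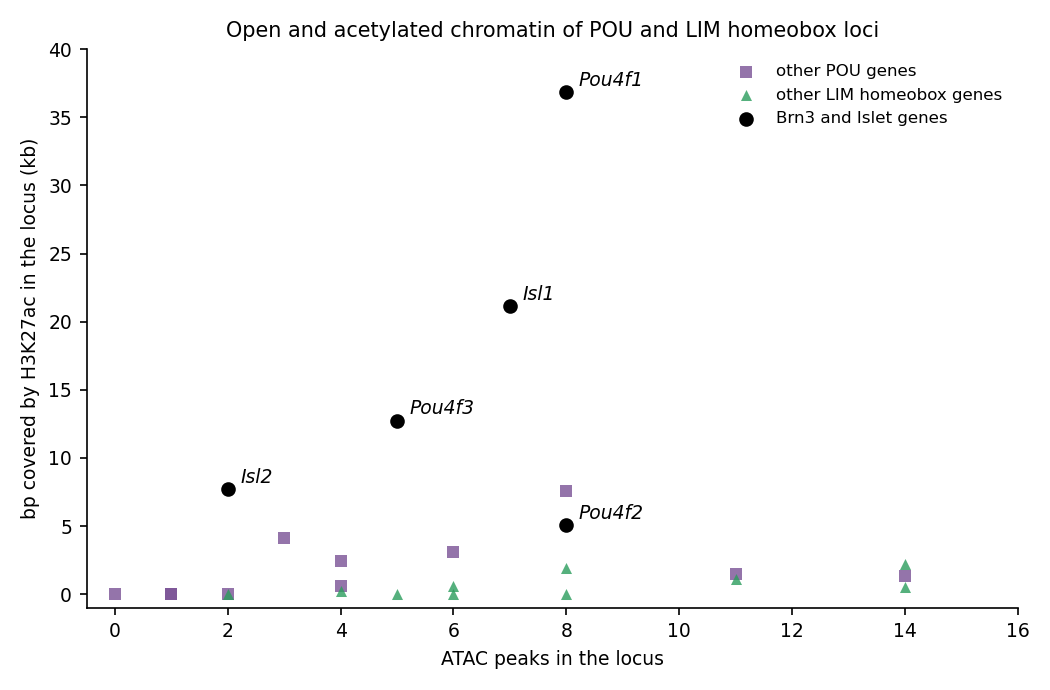
ATAC peaks in the locus (x axis, number) against bp covered by H3K27ac in the locus (y axis, kb) for the Brn3 and Islet genes (black), 11 other POU genes (purple squares) and 10 other LIM homeobox genes (green triangles), 1 point a gene. Isl1, Isl2, Pou4f1 and Pou4f3 lie above every other POU and LIM homeobox gene shown, while Pou4f2 lies below 1 of them. The values are not divided by locus length, which was 611 kb at Isl1 and 116 kb at Pou2f2.

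Genes that act with or after Brn3a and Islet1 are to be read beside the shares of all genes with marks at an end, which were 60.4% for ATAC, 49.3% for H3K27ac and 47.8% for both. Of 10 cofactors of LIM proteins, 8 had ATAC and 5 had both marks at an end (Lmo4, Ssbp2, Ssbp3, Ssbp4 and Rlim). Ldb1, the adaptor that binds LIM domains, had neither at an end, but its locus held 5 ATAC peaks, 4 of them acetylated, and 35.9% of its span was acetylated. Of 20 sensory genes, 15 had ATAC at an end and 11 H3K27ac. Among these, Tlx3, Neurog1, Neurod1, Nefl and Hmx1 were acetylated over 100%, 88.0%, 71.2%, 68.4% and 51.7% of their spans. Such coverage was not limited to sensory genes: 1 of the 6 glial and neural crest markers was acetylated over 84.6% of its span. The sensory neuropeptide genes Calca and Gal, the receptor gene Ret and Neurog2 were open at an end with 0 H3K27ac peaks in the locus. Prrxl1, Runx1, Ntrk3 and Fgf13 had neither mark at an end, with 7, 12, 13 and 3 ATAC peaks and 3, 2, 8 and 2 H3K27ac peaks in the locus. H3K27ac covered 9.65 kb of the Prrxl1 locus, 18.1% of the gene's span included, and 14.2 kb of the Ntrk3 locus.

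Likeness was measured as the distance over 6 values of the locus on a log2(value + 1) scale: ATAC peaks, H3K27ac peaks, ATAC peaks overlapping H3K27ac, kb under H3K27ac, and ATAC and H3K27ac peaks at an end. Neither the length of the locus nor the span covered enters it, so like genes can differ in breadth: H3K27ac covered 0% of the span of Ccl26, the gene most like Isl2, and 2.97% of that of Septin7. By this measure the 3 genes most like Pou4f1 were Basp1, Grip1 and Nefm (distances 0.85, 0.86 and 0.92). For Isl1 they were Tuba1c, Afap1 and Tshz1 (0.83, 0.84 and 0.91). Pou4f2 was nearest to Septin7, 1810013L24Rik and Setd7 (0.11, 0.15 and 0.17), Pou4f3 to Prim2, Ube2e3 and Gab1 (0.34, 0.43 and 0.50), and Isl2 to Ccl26, Zbtb7a and Meis3 (0.44, 0.59 and 0.80). Within the group, Isl1 and Pou4f3 were the closest pair, at 1.32, and Pou4f1 and Isl2 the farthest apart, at 4.57. None of the 5 genes was thus among the 3 most like another by this measure.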

How the data were processed

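Per the labels, DRG of E11.5 embryos were dissociated, fixed and sorted, 50000 cells per preparation were used, and libraries had at most 15 PCR cycles. Per the submitters' processing notes, cutadapt 1.18, Bowtie2 2.3.5.1, MACS2 and bedtools were used on mm10. Thresholds and how the consensus was formed are not given in the sources used here. The deposited values are peak starts and ends in bp, with no signal or depth, so a peak missing for lack of reads and one missing from the cells cannot be told apart. How broad stretches were joined into a peak bears on every width.

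The chromosomes used were 1 to 19, X and Y, which hold 43652 of 43739 ATAC and 19924 of 19928 H3K27ac peaks, with starts counted from 1. A peak is at an end if it overlaps the 1 kb around either annotated end, and otherwise inside or in a flank by its midpoint. For ranks, every gene was given a locus by the same rule. Domains join H3K27ac peaks within 10 kb. Starts, strands and promoters are RefSeq's (GRCm38.p6): 4 of 5 genes matched. All list genes matched, Drgx as Prrxl1. The planned search of peak sequences and comparison of proteins were not made, as the sequences used here were promoters. Named genes are the 5 genes, those of each list without either mark, up to 4 per list with most peaks, and the 3 most alike; any other list gene was named with its values in view. A list gene and a neighbouring gene that this rule or the locus would name are not reported here. The genes and lists were chosen with earlier results of these data known. Scripts used Python 3.11.15, numpy 2.4.6 and pandas 2.3.3, and interval counts were tested on simulated data.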

Additional observations from a re-analysis of the deposited data

How the results depend on the processing

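No paired analysis was possible because each assay is given as 1 consensus list, so no replicate could be left out either. The lists carry no score to tighten, so the narrower peaks were dropped instead: with the wider 50% alone, the loci held 18 ATAC peaks (30 with all) and 21 H3K27ac peaks (33 with all), fewer peaks by construction; Pou4f2 then had no H3K27ac at an end. Flank limits of 100 and 500 kb gave 25 and 36 ATAC and 23 and 40 H3K27ac peaks, and assignment to the nearest gene end 28 and 29. The acetylated share of ATAC peaks lay between 61.1% and 80% under all 8 alternatives, the last when H3K27ac within 1 kb counted as shared. ATAC at an end was found at 4 genes with a window of 0.5 kb and at 5 with 2.5 kb. Alternatives chosen after seeing the data were H3K27ac within 1 kb of an ATAC peak, any overlap with the locus (32 and 33 peaks), and leaving out peaks within 1 kb of other protein-coding ends, of which there were none. Of 40 single-gene domain sizes and ranks under an alternative, 16 moved by over 1.5 times, among them the rank of Isl1 by H3K27ac peaks (550, 1992 at 100 kb and 114 at 500 kb). Depth is unknown, so a missing peak is no evidence of closed or unacetylated chromatin.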

Other observations

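The H3K27ac peak of Isl1 had rank 4 by width, behind 3 peaks over Hox genes, and peaks above the lower limit of 10 kb were also few. Of the 23 peaks of 10 kb or more, several covered Hox genes, which set position along the body axis, and the widest, 85798 bp over Hoxb2 to Hoxb9, held 13 ATAC peaks. Nr2f2, a nuclear receptor gene, had a peak of 18266 bp with 3 ATAC peaks, and Tlx3 and Ebf3, both regulators of neuronal identity, had peaks of 10139 and 10097 bp with 2 ATAC peaks each. One of 12147 bp at Hoxc9 held 0. Peaks at Cemip2, Bahcc1 and Zmynd8, of 16254, 15347 and 14901 bp, were also wider than those of Tlx3 and Ebf3. These genes were chosen after their values were seen.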
